A study of Mus musculus with 8 samples.

Results

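Polycomb repressive complex 2 (PRC2) is the enzyme complex that places methyl groups on H3K27, a histone mark of repressed genes, and 10 genes that encode its subunits were followed through mouse retinal development. They were chosen by name, as the core subunits Ezh1, Ezh2, Eed, Suz12, and Rbbp4 and the accessory subunits Jarid2, Aebp2, Mtf2, Phf1, and Phf19. Each of the 10 had 1 row in every table, of 21828 genes in all. RNA of ICR mice was sequenced in 8 libraries, with 1 library per condition. Of these, E15 and E18 were unsorted whole retina. At the postnatal stages P2, P5, and P8, cells were sorted into a Cd73 positive (Cd73PC) and a Cd73 negative (Cd73NC) fraction. No mutant, transgene, or drug treatment entered these libraries. The retinas of several animals were pooled before sorting, and both fractions of a stage came from the same pool. Cd73 (gene Nt5e) is a surface enzyme carried by rod precursors and rods, so Cd73PC was enriched for rods, while Cd73NC held the other retinal cells and progenitors.

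In PRC2, Ezh1 or Ezh2 is the methyltransferase, Eed binds the methylated histone tail and stimulates the enzyme, Suz12 is the scaffold that holds the complex together, and Rbbp4 is a histone chaperone that other chromatin complexes also use. Ezh2 is best known from dividing cells and Ezh1 from cells that have left the cell cycle. The accessory subunits define 2 classes of the complex, since Jarid2 and Aebp2 join in one (PRC2.2) and the Polycomb-like proteins Mtf2, Phf1, and Phf19 join in the other (PRC2.1). In the retina, the complex is known to act in dividing progenitors and in the differentiation of late-born cells.

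The 300 bases around each annotated start site (250 before it and 50 from it on) were searched on both strands for 4 words that E2F cell cycle factors bind (TTTCCCGC, TTTCGCGC, TTTGCCGC, and TTTGGCGC) and for the word TTTGAA of the cell cycle homology region. The members had 14 such windows in the RefSeq table of build GRCm38.p6, and each matched 1 place in NCBI37/mm9 exactly. An E2F word was found in 3 of these 14 windows, against 2.28% of 32544 windows of all genes, and TTTGAA in 4, against 17.8%. The 3 windows with an E2F word belonged to Ezh2, Suz12, and Phf19. These 3 follow with the windows of Ezh1 and Jarid2, whose levels ran opposite to that of Ezh2 over the libraries, and for Jarid2 the window is that of the start site in the tables. The bases are written 5′ to 3′ on the strand of the gene, from 250 bases before the start site to 30 bases after it, with the words found in capitals. Coordinates are NCBI37/mm9.
Ezh2, chr6:47545000-47545279, minus strand: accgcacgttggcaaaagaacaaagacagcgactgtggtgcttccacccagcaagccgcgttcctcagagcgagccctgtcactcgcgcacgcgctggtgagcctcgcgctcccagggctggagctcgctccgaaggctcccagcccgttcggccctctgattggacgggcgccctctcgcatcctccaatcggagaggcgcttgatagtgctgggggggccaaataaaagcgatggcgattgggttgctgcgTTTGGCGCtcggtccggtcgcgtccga
Suz12, chr11:79806358-79806637, plus strand: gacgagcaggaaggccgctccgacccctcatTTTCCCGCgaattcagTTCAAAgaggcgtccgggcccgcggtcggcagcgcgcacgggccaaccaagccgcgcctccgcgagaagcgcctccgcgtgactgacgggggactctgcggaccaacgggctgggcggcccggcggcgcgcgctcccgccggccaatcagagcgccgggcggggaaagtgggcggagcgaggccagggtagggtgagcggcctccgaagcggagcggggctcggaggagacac
Phf19, chr2:34769467-34769746, minus strand: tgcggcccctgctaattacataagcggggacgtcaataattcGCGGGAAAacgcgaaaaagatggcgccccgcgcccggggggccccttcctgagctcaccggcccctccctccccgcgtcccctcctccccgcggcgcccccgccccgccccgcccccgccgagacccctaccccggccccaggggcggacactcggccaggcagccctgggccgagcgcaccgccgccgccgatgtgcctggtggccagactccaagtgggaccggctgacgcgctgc
Ezh1, chr11:101087748-101088027, minus strand: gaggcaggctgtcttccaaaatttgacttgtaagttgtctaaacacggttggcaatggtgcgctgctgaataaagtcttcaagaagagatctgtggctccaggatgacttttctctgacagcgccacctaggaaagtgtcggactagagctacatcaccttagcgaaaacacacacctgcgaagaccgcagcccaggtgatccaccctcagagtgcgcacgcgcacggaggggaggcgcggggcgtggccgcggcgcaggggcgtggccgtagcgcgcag
Jarid2, chr13:44825893-44826172, plus strand: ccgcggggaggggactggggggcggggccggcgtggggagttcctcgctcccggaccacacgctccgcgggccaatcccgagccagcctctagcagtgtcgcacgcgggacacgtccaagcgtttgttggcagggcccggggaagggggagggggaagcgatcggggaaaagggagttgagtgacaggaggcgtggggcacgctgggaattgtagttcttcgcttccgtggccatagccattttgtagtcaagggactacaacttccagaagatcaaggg

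The E2F word of Ezh2, TTTGGCGC, began at base 4 of the transcript. That of Suz12, TTTCCCGC, began 219 bases before the start site, and TTTGAA followed on the other strand, 203 bases before the start site. That of Phf19 was TTTCCCGC on the other strand, 208 bases before the start site. Neither Ezh1 nor Jarid2 held any of the words in these windows. Eed held TTTGAA once on each strand, and Rbbp4 and Phf1 held none of the words. The share of CG dinucleotides was 10.4% in the Ezh2 window, 13.7% in that of Suz12, and 7.69% in that of Ezh1. Its median was 7.86% over the 14 windows of the members, against 2.34% over all windows. Each of the 4 E2F words holds a CG, and the part of CG content in their count was not tested. A match of letters is a description of the window and was not tested as a binding site.

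Expression is given as FPKM, a read density per kilobase of transcript scaled to the mapped reads of the library, which the authors estimated with Cufflinks. FPKM is scaled to transcript length, and levels of different genes are set side by side on that basis. This scaling does not remove other differences between genes, such as reads that match more than 1 place. Cufflinks' lower and upper bounds cover the uncertainty of the estimate within 1 library and not the variation between animals, and with 1 library per condition no difference at a single stage could be tested against replicate error. All 80 values of the members had the status of a completed estimate and lay inside their own bounds, whose half-width was on average 3.11% (Rbbp4) to 14.3% (Phf1) of the FPKM, and 33.8% for the weakly expressed Phf19. The depth of the libraries relative to E18 was between 0.966 and 1.62. Differences between libraries are log2 ratios of FPKM + 1, and a member was counted as higher or lower when that ratio passed 1.5-fold among genes with an FPKM of at least 1 in either library. In bulk RNA, a lower value can mean fewer cells that express a gene or less RNA per cell, and these cannot be told apart.

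The sort enriched the rod genes in Cd73PC. Nt5e was at 97.3 FPKM in Cd73PC against 2.43 in Cd73NC at P2, 130.8 against 31.4 at P5, and 124.2 against 9.38 at P8. All 9 genes of a rod list were higher in Cd73PC at the 3 stages. Their level in Cd73NC was at the median 2.88%, 9.19%, and 7.33% of that in Cd73PC at P2, P5, and P8. The highest share was 18.9% at P2 (Rcvrn), 51.0% at P5 (Crx), and 30.3% at P8 (Crx). For Nt5e itself it was 24.0% at P5. Bipolar genes (6 of 6) and Muller glia genes (5 of 5) were lower in Cd73PC at P8, against 31.3% of all genes tested. At P2, however, 2 of the 3 bipolar genes tested were higher in Cd73PC and 1 was lower. Of the 2 amacrine genes tested at P8, 1 was lower (Pax6) and 1 higher (Slc6a9, 50.7 against 10.4 FPKM). Retinal ganglion cell genes were at a median of 55.1 FPKM at E15 and at a median under 2 FPKM in each sorted library. Isl1 of that list went otherwise, with 69.7 FPKM at E15 and 294.5 in P8 Cd73NC.

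**Figure D1:**
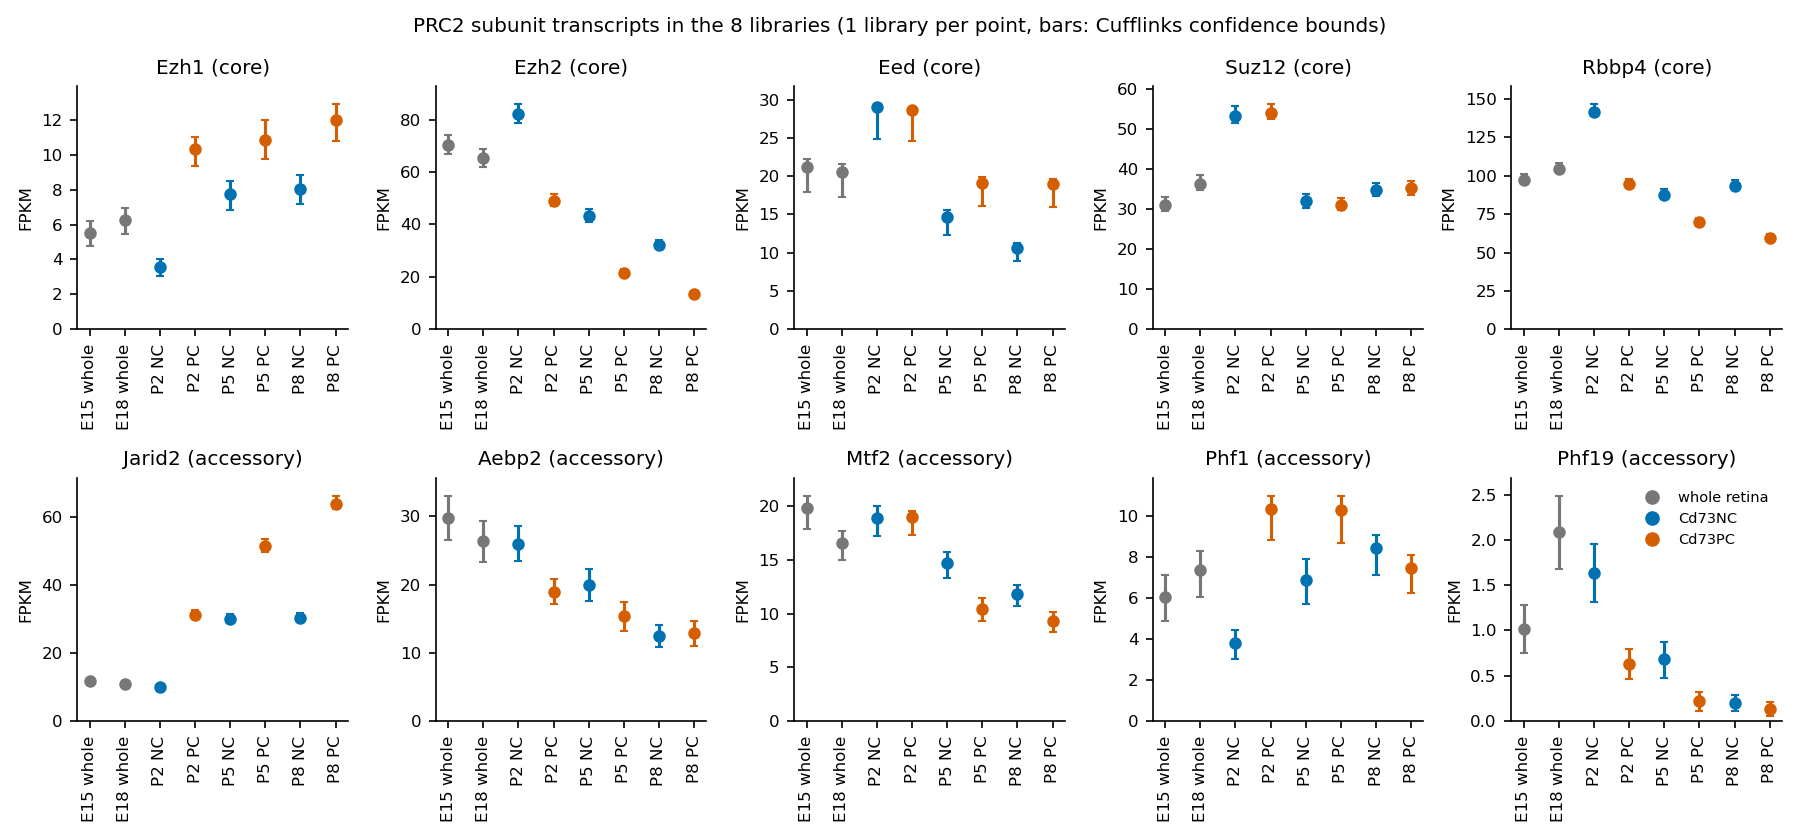
FPKM of the 10 PRC2 subunits (y axes, each with its own scale from 0) in the 8 libraries (x axes), with Cufflinks' bounds as bars. Ezh2 was lowest and Jarid2 and Ezh1 were highest in Cd73PC at P8, while Suz12 stayed between 31.1 and 54.0 FPKM.

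Ezh2 had the widest range of the core subunits over the libraries, and it was lower in Cd73PC than in Cd73NC at every stage. It lies on chr6:47480273-47545029. Its FPKM was 70.2 at E15 and 65.2 at E18 in whole retina. Cd73NC had 82.1, 43.3, and 32.3 FPKM at P2, P5, and P8, and Cd73PC had 49.1, 21.5, and 13.3. The P2 Cd73NC library was the highest of the 8 and the P8 Cd73PC library the lowest, which made a range of 6.15-fold, against a median range of 2.49-fold over 10792 genes expressed at 5 FPKM or more in at least 1 library. Only the bounds of E15 and E18 overlapped between neighbours in the order of the libraries. Relative to Cd73NC, the log2 ratios of Cd73PC were −0.73, −0.98, and −1.22 at the 3 stages, each past 1.5-fold. Between P2 and P8, Ezh2 fell by 1.80 on the log2 scale in Cd73PC and by 1.32 in Cd73NC, and 2.97% of the genes tested lay below it in Cd73PC. By level, 93.2% of expressed genes lay below Ezh2 at E15 and 62.7% in P8 Cd73PC.

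Ezh1, the other methyltransferase, was a low member that ran in the opposite direction. It lies on chr11:101052429-101087764. Its FPKM was 5.53 at E15 and 6.24 at E18, 3.56, 7.72, and 8.04 in Cd73NC at P2, P5, and P8, and 10.3, 10.9, and 11.99 in Cd73PC. The 3 Cd73PC libraries were the highest of the 8 and their bounds overlapped with each other but not with those of P8 Cd73NC, the next in order. At P2 Cd73PC was higher by a log2 ratio of 1.31, past 1.5-fold. The ratios of 0.44 and 0.52 at P5 and P8 fell short of 1.5-fold although the bounds did not overlap, and that of P8 passed it under 3 other scalings. Over time, Ezh1 rose in Cd73NC from P2 to P8 by 0.99 on the log2 scale, whereas in Cd73PC the log2 ratio was 0.20 and the bounds overlapped.

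The Ezh1 to Ezh2 ratio was taken from FPKM without a pseudocount, so it did not depend on scaling by 1 factor per library. It was 0.0788 at E15 and 0.0957 at E18. Cd73NC had ratios of 0.0434, 0.179, and 0.249 at P2, P5, and P8, and Cd73PC had 0.210, 0.506, and 0.899. Cd73PC was thus above Cd73NC at each stage, by 4.85-fold, 2.84-fold, and 3.62-fold. The bounds of both genes allowed 3.53 to 6.58 at P2, 2.03 to 4.05 at P5, and 2.56 to 5.04 at P8. At P2 the larger share of that difference was in Ezh1 (2.90-fold higher FPKM, with Ezh2 1.67-fold lower), and at P8 it was in Ezh2 (2.42-fold lower, with Ezh1 1.49-fold higher). Over the postnatal stages the ratio rose 4.27-fold in Cd73PC and 5.73-fold in Cd73NC. In Cd73PC nearly all of this was the fall of Ezh2 (3.68-fold, with Ezh1 1.16-fold higher), while in Cd73NC both genes took part (Ezh1 2.26-fold higher and Ezh2 2.54-fold lower). Ezh1 made up 7.31% of the summed FPKM of both genes at E15, 4.16% in P2 Cd73NC, and 47.3% in P8 Cd73PC, where the bounds allowed ratios from 0.744 to 1.06. The summed FPKM of both methyltransferases fell from 85.7 in P2 Cd73NC to 25.3 in P8 Cd73PC, so the near-equal levels there were reached at a low sum.

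**Figure D2:**
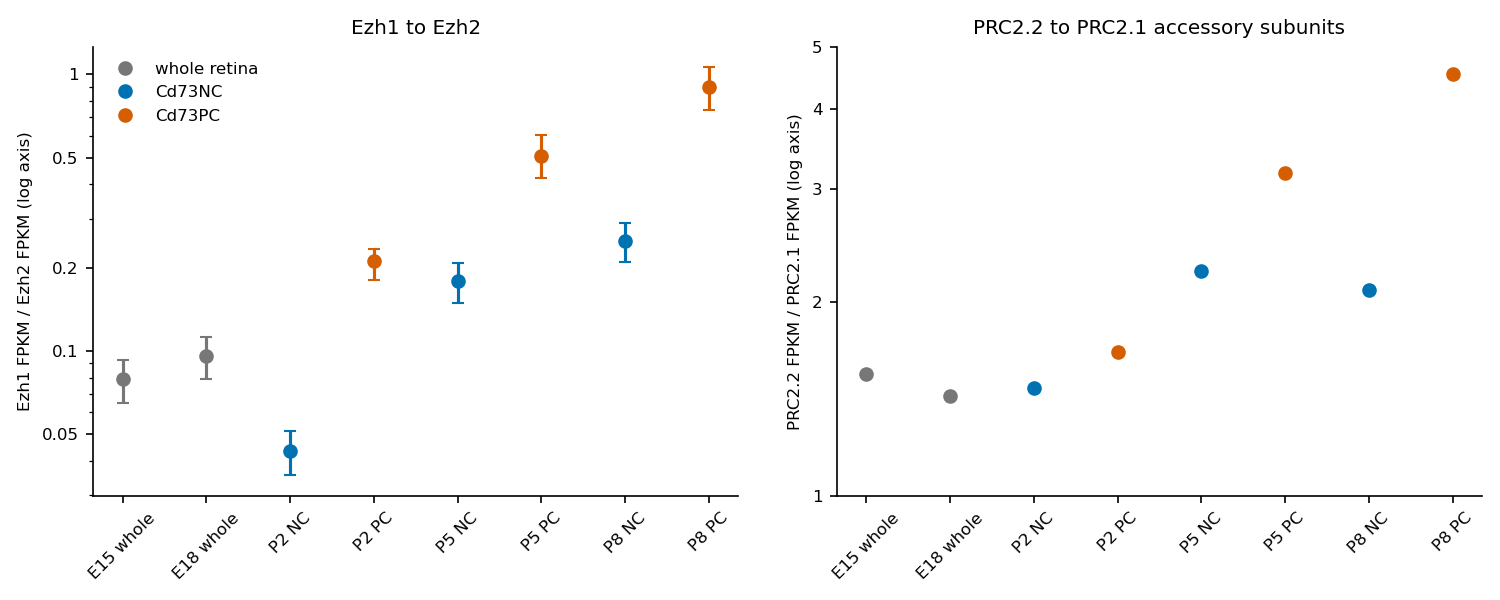
Left, ratio of Ezh1 to Ezh2 FPKM (log axis) in each library, with the range that the bounds of both genes allow as bars. Right, ratio of the summed FPKM of Jarid2 and Aebp2 to that of Phf1, Mtf2, and Phf19 (log axis), with no error shown. Both were highest in P8 Cd73PC, at 0.899 and 4.54.

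The scaffold Suz12 varied least over the libraries. It lies on chr11:79806608-79847625. Its FPKM was 31.1 at E15, 36.4 at E18, 53.2, 32.0, and 34.7 in Cd73NC at P2, P5, and P8, and 54.0, 31.1, and 35.3 in Cd73PC. Both P2 libraries stood above the other 6, and at each stage the bounds of the fractions overlapped, with log2 ratios of 0.02, −0.04, and 0.02, the second of which was above 0 under each of 3 other scalings. The range over the libraries was 1.74-fold, the smallest of the 10 members. Its fall from P2 to P8 just passed 1.5-fold in both fractions, with a log2 ratio of −0.60 in each, and that call was lost in both under 3 other scalings.

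Eed, the histone-binding subunit, was level between fractions at P2 and higher in Cd73PC at P8. It lies on chr7:97103164-97129486. Its FPKM was 21.3 at E15 and 20.6 at E18, then 29.0, 14.7, and 10.7 in Cd73NC at P2, P5, and P8, and 28.6, 19.1, and 18.96 in Cd73PC. The fractions overlapped in their bounds at P2 and stood apart at P5 and P8. The log2 ratios of Cd73PC over Cd73NC were −0.02 (above 0 under 3 other scalings), 0.36, and 0.77 in order of stage, and only the last passed 1.5-fold. In Cd73NC, Eed was the core subunit with the largest fall from P2 to P8, with a log2 ratio of −1.36, against −0.57 in Cd73PC. In the whole retinas, the bounds of E15 and E18 overlapped.

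Rbbp4, the histone chaperone, was the most abundant member in every library but P8 Cd73PC, where Jarid2 was higher. It lies on chr4:128984344-129012614, and 1460 bases of it overlap Sync in the tables, which was at most 0.945 FPKM. Its FPKM was 97.4 at E15 and 104.2 at E18, 141.6, 87.6, and 93.6 in Cd73NC at P2, P5, and P8, and 94.5, 69.6, and 59.3 in Cd73PC. Cd73PC was below Cd73NC at the 3 stages, with log2 ratios of −0.58, −0.33, and −0.65, and only the last passed 1.5-fold. It also fell from P2 to P8 in both fractions, by 0.66 in Cd73PC and 0.59 in Cd73NC. These 3 calls were lost under 3 other scalings. Of windows of 36 bases, the read length, in its longest transcript, 5.54% also occur at another place in the mm9 genome, and the share was 0% for Ezh2, Eed, and Phf1, at most 3.83% for the other members but Suz12, and 6.57% for Suz12. Reads from such windows could have been split between places.

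Jarid2, the DNA-binding subunit of PRC2.2, was the member most enriched in Cd73PC. It lies on chr13:44826143-45017012. Its FPKM was 11.7 at E15 and 10.9 at E18, 9.90, 30.01, and 30.5 in Cd73NC at P2, P5, and P8, and 31.2, 51.5, and 63.9 in Cd73PC. The Cd73PC library was above the Cd73NC library of its stage each time, with log2 ratios of 1.57, 0.76, and 1.04, all past 1.5-fold and with bounds that did not overlap. P2 Cd73PC, P8 Cd73NC, and P5 Cd73NC stood level, with overlapping bounds between neighbours, and so did both whole retinas and P2 Cd73NC. With time, Jarid2 rose in both fractions, by 1.01 in Cd73PC and 1.53 in Cd73NC on the log2 scale from P2 to P8. In Cd73NC, 9 of 9 rod genes were also higher at P8 than at P2, against 21.6% of all genes. Their part in the rise of Jarid2 there was not tested. By level, 53.7% of expressed genes lay below Jarid2 at E15 and 92.4% in P8 Cd73PC.

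Aebp2, the zinc finger partner of Jarid2 in PRC2.2, did not share its course. It lies on chr6:140571184-140625939. Its FPKM was 29.8 at E15 and 26.4 at E18, 26.02, 19.96, and 12.5 in Cd73NC, and 18.96, 15.3, and 12.8 in Cd73PC at P2, P5, and P8. It was higher in Cd73NC at P2 and P5, with log2 ratios of −0.44 and −0.36 that did not pass 1.5-fold, and at P8 the bounds overlapped. The change from P2 to P8 was −1.004 in Cd73NC, past 1.5-fold, and −0.53 in Cd73PC, on the log2 scale.

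The Polycomb-like proteins bind DNA rich in CG dinucleotides and methylated H3K36. Mtf2, on chr5:108494761-108538021, was at 19.8 FPKM at E15 and 16.6 at E18, 18.9, 14.7, and 11.9 in Cd73NC, and 18.99, 10.46, and 9.27 in Cd73PC at P2, P5, and P8. The fractions were level at P2, with overlapping bounds and a log2 ratio of 0.00, and Cd73PC was lower at P5 (−0.46) and P8 (−0.32), short of 1.5-fold. Mtf2 fell past 1.5-fold from P2 to P8 in Cd73PC (−0.96) and in Cd73NC (−0.63), the latter not under upper-quartile or median-ratio scaling. Phf1, on chr17:27070072-27074835, was at 6.04 FPKM at E15 and 7.34 at E18, 3.80, 6.88, and 8.44 in Cd73NC, and 10.4, 10.3, and 7.48 in Cd73PC. It was higher in Cd73PC at P2, with a log2 ratio of 1.24, and the difference was 0.52 at P5 and −0.15 at P8, where the bounds overlapped and the sign changed under upper-quartile scaling and quantile normalization. Within Cd73NC, Phf1 rose past 1.5-fold from P2 to P8 (0.97), and in Cd73PC the log2 ratio was −0.42. Whether the change differed between the fractions was not tested.

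Phf19, on chr2:34749275-34769496, was the scarcest member. Its FPKM was 1.02 at E15 and 2.09 at E18, 1.64, 0.683, and 0.198 in Cd73NC, and 0.631, 0.218, and 0.133 in Cd73PC at P2, P5, and P8. It was under 1 FPKM in 5 of the 8 libraries, and the bounds of P5 Cd73PC and both P8 libraries overlapped between neighbours. The log2 ratio of FPKM + 1 was −0.69 at P2 between fractions and −1.14 from P2 to P8 in Cd73NC, and without a pseudocount these were −1.38 and −3.05. The first did not pass 1.5-fold under quantile normalization. At P5 and P8 it was under 1 FPKM in both fractions and was not among the genes tested. It was the only member past 1.5-fold between E15 and E18, with a log2 ratio of 0.62, and that call was lost under 3 other scalings.

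**Figure D3:**
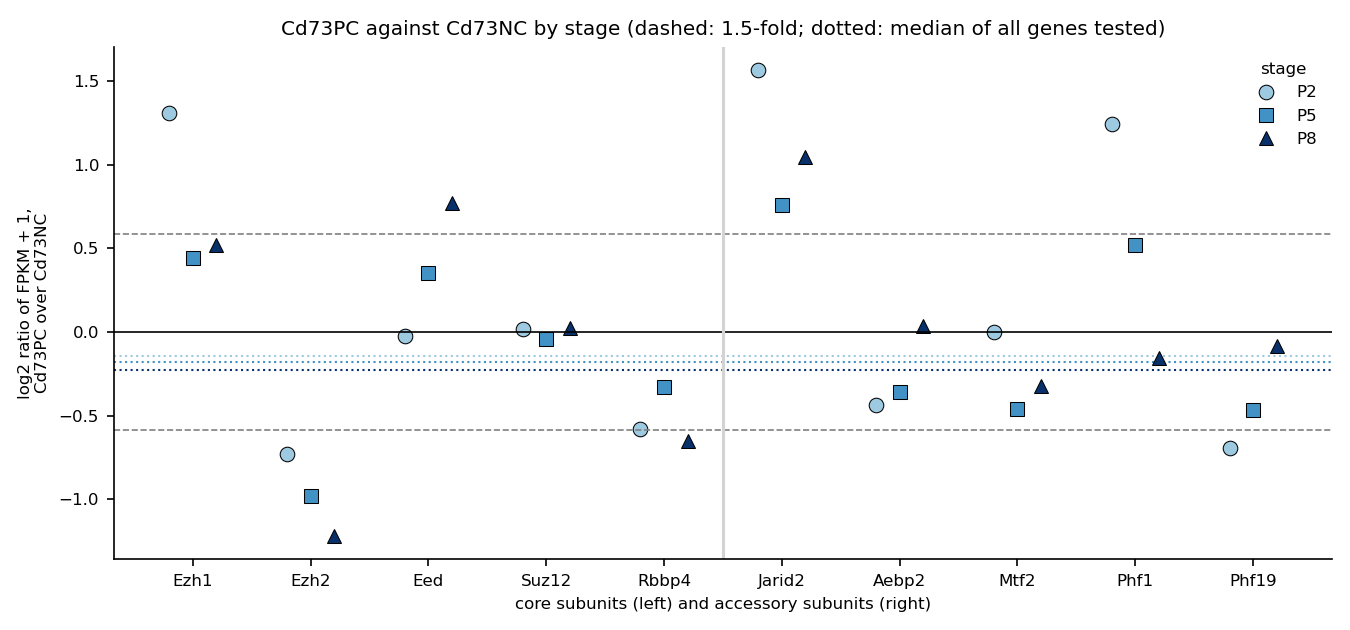
Log2 ratio of FPKM + 1 in Cd73PC over Cd73NC (y axis) for each subunit (x axis) at P2 (circles), P5 (squares), and P8 (triangles), with 1.5-fold as dashed lines and the median of all genes tested at each stage as dotted lines. Jarid2 was above and Ezh2 below the dashed lines at each of the 3 stages.

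Members on both sides of the threshold were found at each stage, and their counts are read against the shares over all genes. At P2, 3 of 10 members were higher in Cd73PC (Ezh1, Jarid2, and Phf1), against 14.5% of 12336 genes tested, and 2 were lower (Ezh2 and Phf19), against 25.0%. At P5, 1 of the 9 members tested was higher (Jarid2), against 12.3% of 12231 genes, and 1 was lower (Ezh2), against 27.0%. At P8, 2 of the 9 tested were higher (Eed and Jarid2), against 13.0% of 12365 genes, and 2 were lower (Ezh2 and Rbbp4), against 31.3%. At the 3 stages together, Jarid2 was higher each time, as were 6.49% of 11579 genes, and Ezh2 was lower each time, as were 14.3%. The median log2 ratio of the genes tested was itself below 0, at −0.14, −0.18, and −0.23 at P2, P5, and P8, and scaling to the upper quartile raised it by 0.07, 0.14, and 0.17. Under that scaling Ezh1 also passed 1.5-fold at the 3 stages, and Ezh2 and Jarid2 passed it as before.

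The mean difference between fractions over the 3 stages was tested with limma, with the stage as a block since both fractions of a stage came from 1 pool. The spread of a gene's difference between stages was moderated toward a trend over all genes tested. The SE and p are therefore not from the gene's own spread alone. Jarid2 was higher in Cd73PC by 1.12 ± 0.19 (log2, SE), with an adjusted p of 0.012 over 13057 genes. Ezh2 was lower by a log2 difference of −0.98 ± 0.15 (adjusted p = 0.0092), and Rbbp4 by −0.52 ± 0.14 (adjusted p = 0.042). Each of these differences had the same direction at 3 of 3 stages. Ezh1 did not pass the test, at 0.76 ± 0.22 (adjusted p = 0.053), but passed it under the 3 other scalings (adjusted p from 0.026 to 0.030), whereas Rbbp4 did not pass under upper-quartile or median-ratio scaling (0.099 and 0.094). The adjusted p of the other 6 members was 0.19 or more. Thus 1 of 10 members was higher, against 8.90% of all genes tested, and 2 were lower, against 19.2%. Without the P5 pair 0 members passed in limma (Jarid2 0.067 and Ezh2 0.094), while 2 were higher and 2 lower at an unadjusted p under 0.05. Without the pair of P2 or of P8, Jarid2 and Ezh2 passed and Rbbp4 did not (0.099 and 0.14).

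The median ratios of core and accessory subunits were compared without a test. Between fractions, the median log2 ratio of the 5 core subunits was −0.02, −0.04, and 0.02 at P2, P5, and P8, and that of the 5 accessory subunits was 0.00, −0.36, and −0.08. The members of each group lay on both sides of 0 at every stage. The accessory medians include Phf19, which was under 1 FPKM in both fractions at P5 and P8 and was not tested there. At P8 the accessory median was the value of Phf19 itself. At P5 Jarid2 (0.76) and Phf1 (0.52) were above 0, and Aebp2 (−0.36) and Mtf2 (−0.46) were below. The accessory median at P5 thus depended on Phf19. Between P2 and P8, the medians were −0.60 for core and −0.53 for accessory subunits in Cd73PC, and −0.60 and −0.63 in Cd73NC, against −0.19 and −0.06 over all genes tested. The accessory median in Cd73PC was again the value of Phf19, which was not tested there. In Cd73NC every member passed 1.5-fold, 7 lower and 3 higher (Ezh1, Jarid2, and Phf1), where 24.0% of 12751 genes were lower and 21.6% higher. Suz12, Rbbp4, and Mtf2 passed it narrowly, and 4 members were lower under upper-quartile or median-ratio scaling. In Cd73PC, 4 of 9 members tested were lower (Ezh2, Suz12, Rbbp4, and Mtf2) and 1 was higher (Jarid2), where 25.7% of 12071 genes were lower and 11.2% higher. Between E15 and E18, 1 of 10 members was higher and 0 were lower, against 7.60% and 3.47% of 12627 genes.

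The summed FPKM of the groups differed in opposite directions between fractions. The core sum was 225.5 at E15 and 232.7 at E18, 309.6, 185.3, and 179.4 in Cd73NC, and 236.5, 152.2, and 138.9 in Cd73PC at P2, P5, and P8. The accessory sum was 68.4 and 63.3 in the whole retinas, 60.3, 72.3, and 63.4 in Cd73NC, and 80.2, 87.8, and 93.6 in Cd73PC. The core sum was lower and the accessory sum higher in Cd73PC than in Cd73NC at each stage. The core difference rested on Rbbp4 and Ezh2, which were lower in Cd73PC at each stage. Of the other core subunits, Ezh1 was higher in Cd73PC at each stage, Suz12 had overlapping bounds, and Eed was higher at P5 and P8. The accessory difference rested on Jarid2, since the sum of the other 4 accessory subunits was not higher in Cd73PC at any stage. It was 48.9, 36.3, and 29.7 against 50.4, 42.3, and 33.0 in Cd73NC. These sums were not recomputed under the other scalings, which raised Cd73PC relative to Cd73NC, so the direction of the small differences is uncertain. With all members, the ratio of core to accessory went from 5.13 in P2 Cd73NC to 1.48 in P8 Cd73PC. Rbbp4 made the largest part of the core sum and Jarid2 came to be the largest part of the accessory sum, at 17.1% of it at E15, 16.4% in P2 Cd73NC, and 68.3% in P8 Cd73PC. The ratio of PRC2.2 subunits (Jarid2 and Aebp2) to PRC2.1 subunits (Phf1, Mtf2, and Phf19) was 1.54 at E15, 1.43 at E18, 1.47, 2.24, and 2.09 in Cd73NC, and 1.67, 3.18, and 4.54 in Cd73PC. The ratio was higher in Cd73PC by 1.14-fold at P2, 1.42-fold at P5, and 2.17-fold at P8. This too rested on Jarid2 at P2 and P5, where Aebp2 alone relative to the PRC2.1 subunits was lower in Cd73PC (0.632 against 1.07 and 0.731 against 0.895), while at P8 it was higher (0.759 against 0.608). FPKM gives transcripts and not protein, so these ratios do not count complexes.

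**Figure D4:**
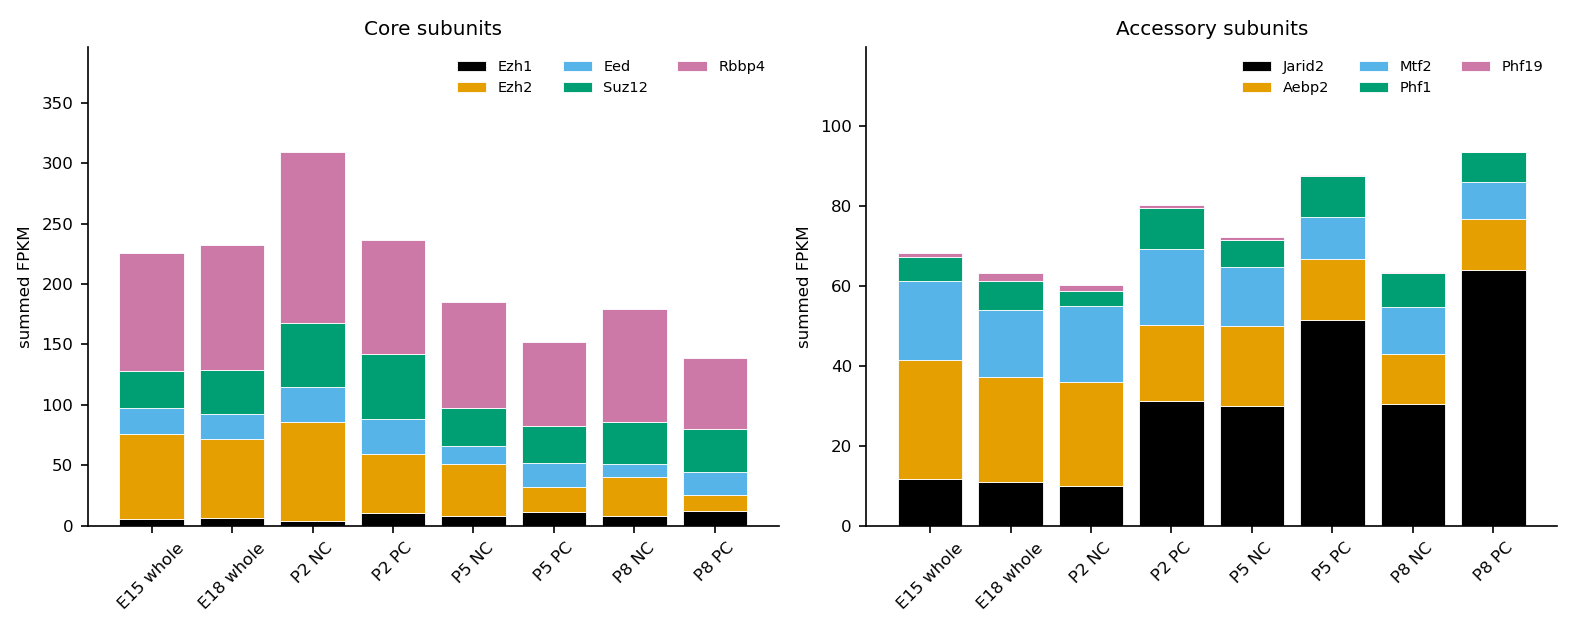
Summed FPKM (y axes, from 0) of the 5 core subunits (left) and the 5 accessory subunits (right) in the 8 libraries (x axes), with each subunit as a segment. The Ezh2 segment shrank from 82.1 to 13.3 FPKM between P2 Cd73NC and P8 Cd73PC, and the Jarid2 segment grew from 9.90 to 63.9.

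The courses of the members were set beside those of cell cycle and rod genes, as a description over 8 libraries that share stages and pools and are not independent. A list of 20 cell cycle genes was lower in Cd73PC at P2 in 20 of 20, at P5 in 18 of 20, and at P8 in 13 of the 18 tested, with median log2 ratios of −1.68, −1.33, and −0.83. Its median level was 59.8 FPKM in P2 Cd73NC, 15.7 in P2 Cd73PC, 1.91 in P8 Cd73NC, and 0.878 in P8 Cd73PC. Ezh2 followed this median with r = 0.93 (Spearman 0.95), Aebp2 with r = 0.98 (0.86), and Phf19 with r = 0.95 (0.95). Mtf2 (0.90, Spearman 0.79) and Rbbp4 (0.80, Spearman 0.93) followed it too, and Jarid2 (−0.91) and Ezh1 (−0.80) ran against it. Ezh2 kept a higher level than this median in the last library, at 13.3 FPKM. Jarid2 followed the rod median with r = 0.96 (Spearman 0.90) and Ezh1 with r = 0.84 (0.93), and Ezh2 ran against it with r = −0.89 (−0.86). Aebp2 (−0.88), Phf19 (−0.84), Mtf2 (−0.80), and Rbbp4 (−0.76) ran against it too. For these members, following one list was not told apart from running against the other. Suz12 followed neither list, with r = 0.33 and −0.06. Of 8 E2F genes, 5 were lower and 0 higher in Cd73PC at P2, and 5 were lower and 1 higher at P5, against 25.0% and 27.0% of all genes lower. At P8, 2 of the 6 tested were lower and 1 higher, against 31.3% and 13.0%. E2f1 had 63.9 FPKM in P2 Cd73NC and 1.19 in P8 Cd73PC, whereas E2f3 was higher in Cd73PC at P5 (8.57 against 4.55) and P8 (13.3 against 5.95).

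**Figure D5:**
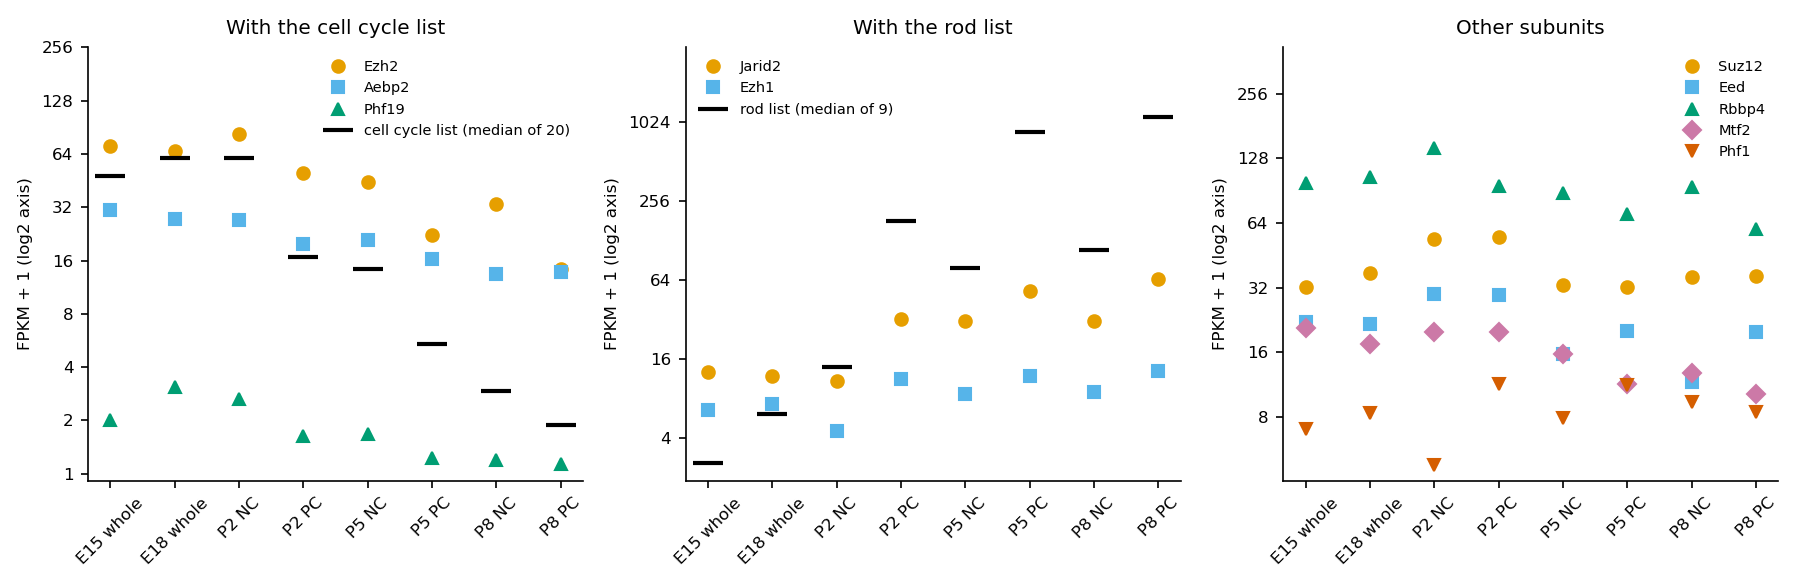
FPKM + 1 (log2 axes) in the 8 libraries (x axes) for subunits beside the median of 20 cell cycle genes (left), beside the median of 9 rod genes (middle), and for the other subunits (right). The medians are black bars and go from 59.8 to 0.878 FPKM (cell cycle, P2 Cd73NC to P8 Cd73PC) and from 1.58 to 1118.8 FPKM (rod, E15 to P8 Cd73PC).

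Among the members, 11 of 45 pairs had r above 0.7 over the libraries and 9 had r below −0.7. Ezh2 went most closely with Mtf2 (r = 0.95, Spearman 0.88) and Rbbp4 (0.92, 0.95), and Ezh1 with Jarid2 (0.92, 0.98). Ezh1 and Ezh2 were opposed (−0.85, −0.93), and so were Ezh2 and Jarid2 (−0.94, −0.90). Among 10859 genes compared, the 5 with the course most like Ezh2 were Dnajc2 (r = 0.99), Id2 (0.99), Hnrnpa1 (0.99), Rqcd1 (0.99), and Thoc1 (0.99). Id2, a helix-loop-helix inhibitor, went from 100.1 FPKM in P2 Cd73NC to 4.15 in P8 Cd73PC. For Ezh1 they were Dnajc6 (0.98), Trip11 (0.98), Tmcc2 (0.98), Bin1 (0.97), and Fntb (0.97), with Dnajc6, an auxilin of clathrin uncoating, at 9.59 FPKM in P2 Cd73NC and 34.1 in P8 Cd73PC. Among the genes most like Jarid2 were Atp1a4 (0.99) and Wdtc1 (0.99).

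For the remaining members, the closest genes were Mad2l1bp, AI314976, and Nsmce4a for Eed (r from 0.97 to 0.98), Nufip1, Psmd14, and Zfp326 for Rbbp4 (0.988 to 0.996), Zfp664, Hn1l, and Cklf for Aebp2 (each 0.99), Gng12, Snx6, and Papd4 for Mtf2 (0.97 to 0.99), Golga2, Sertad1, and Abhd14b for Phf1 (0.91 to 0.97), and Cdk9, Cpsf3l, and Gabpb2 for Phf19 (0.98 to 0.99). Those of Suz12 were Rbm8a, Srp9, and Mterfd1 (0.95 to 0.96), and this likeness rested on the P2 libraries, since without the 2 libraries farthest from the median the r of Rbm8a was 0.22. These likenesses carry no test.

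A list of 9 genes held PRC2 cofactors, demethylases of the mark, and other chromatin regulators (Rbbp7, E130012A19Rik, Kdm6a, Kdm6b, Cdyl, Atrx, Nsd1, Bap1, and Asxl1). Those higher in Cd73PC numbered 1, 0, and 0 at the 3 stages and those lower numbered 1, 2, and 3. These counts were near or below the shares over all genes (14.5%, 12.3%, and 13.0% higher and 25.0%, 27.0%, and 31.3% lower). E130012A19Rik (also named Epop), a PRC2.1 cofactor, was lower at each stage, with 10.04, 7.61, and 7.55 FPKM in Cd73NC and 3.39, 1.64, and 0.834 in Cd73PC. Rbbp7, the close relative of Rbbp4, did not differ past 1.5-fold between fractions and fell with time in both, from 78.1 to 39.4 FPKM in Cd73NC and from 66.6 to 39.8 in Cd73PC. Kdm6b, a demethylase that removes the mark, was at 14.4, 51.5, and 56.1 FPKM in Cd73NC and 22.5, 36.9, and 31.3 in Cd73PC, higher in Cd73PC at P2 and lower at P8. Kdm6a, the related demethylase, stayed between 11.2 and 15.3 FPKM. Among 12 genes of PRC1, the complex that reads the mark, those higher in Cd73PC numbered 2, 3, and 1 at the 3 stages and those lower numbered 2, 2, and 3, read against the same shares.

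Genes of other cells moved with some of these comparisons. At P2, where Ezh1, Jarid2, and Phf1 were higher in Cd73PC, the pigment cell genes Pmel (37.4 against 0.325 FPKM) and Tyrp1 (13.3 against 0.270) were higher there too, and Rpe65, the other gene of the pigment epithelium list, was at 0 in both fractions. Summed over these 3 genes, the level at P2 was 50.6 FPKM in Cd73PC against 0.595 in Cd73NC, and over the later stages it was 41.9 to 53.0 in Cd73PC and 26.9 to 27.5 in Cd73NC. All 3 microglia genes were also higher in Cd73PC at P2, with a sum of 10.2 against 1.86 FPKM. At P5 and P8 their sum was lower in Cd73PC (9.06 against 15.7 and 29.8 against 38.8), with 2 and 1 of the 3 past 1.5-fold. Hba-a1, a globin gene of blood cells, reached 5073.1 FPKM in P8 Cd73NC against 1993.7 in P8 Cd73PC. Of the other blood genes listed, Alas2 was also higher in Cd73NC at P8 (24.8 against 10.1). Hbb-b1 was level there (72.1 against 71.0). Rod genes rose within Cd73NC, with a summed FPKM of 187.9, 1392.2, and 1283.5 at P2, P5, and P8. All 9 were higher there at P8 than at P2, as were Ezh1, Jarid2, and Phf1, against 21.6% of all genes. The part of these cells, rods in Cd73NC included, in the values of the PRC2 subunits was not tested.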

How the data were processed

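RNA was poly(A) selected, read as single ends of 36 bases on an Illumina GA sequencer with a kit that does not mark strand, aligned by the authors to NCBI37/mm9 with TopHat (2.0.8b, up to 50 alignments per read), and estimated with Cufflinks (2.1.1). The authors deposited FPKM values with lower and upper bounds for 23021 rows per library. Here, rows with a failed estimate (4 to 10 per library) were taken as missing, 787 rows of small RNAs were left out, and the rows of 251 symbols with more than 1 row were summed. Each of the 8 conditions had 1 library, so a difference at a single stage has no test. The mean difference between fractions over P2, P5, and P8 was tested with limma 3.58.1 (R 4.3.3) on log2(FPKM + 1), with stage as a block, 2 residual degrees of freedom, a variance trend, and Benjamini-Hochberg adjustment over genes with at least 1 FPKM in any sorted library, a test chosen after the data were seen. Read counts are not in the files used here, and the absolute depth is unknown. Relative depth came from the most common ratio of values among rows under 0.3 FPKM. Bounds were used beside values and as a criterion in 1 alternative only, since 1428 to 2170 rows per library lay outside their own.

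Log2 ratios are of FPKM + 1. Members and lists (PRC2 partners with other chromatin regulators, PRC1, cell cycle, E2F, and cell type markers) were chosen with earlier results of these data known. All members are named, as are the 5 genes most correlated with Ezh1 and with Ezh2 and 3 for each other member, among genes of at least 5 FPKM in 1 library, and examples from the lists in list order. One gene that this rule names for Jarid2 is not reported here. The 4 E2F words and TTTGAA were searched in RefSeq promoter windows, which were matched exactly to NCBI37/mm9 for coordinates. Windows of transcripts came from GENCODE, by the longest transcript of each member. Alternatives were pseudocounts of 0 and 0.1, 3 scalings, a 2-fold threshold, non-overlapping bounds, other filters, and leaving out P5. The code was tested on simulated data and used pandas 2.3.3 and numpy 2.4.6 under Python 3.11.15, with matplotlib 3.10.9 for the plots.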

Additional observations from a re-analysis of the deposited data

How the results depend on the processing

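Under the alternatives run, the Ezh1 to Ezh2 ratio, the PRC2.2 to PRC2.1 ratio, and the medians of core and accessory subunits moved by less than 1.5-fold. Of 550 recomputed values 47 moved by more, and no difference past 1.5-fold changed direction. At a 2-fold threshold, the members lower in Cd73PC were 0, 0, and 1 at P2, P5, and P8, those higher at P5 and P8 were 0 and 1, and none (0) passed in either direction at the 3 stages. At that threshold 1 member was lower from P2 to P8 in Cd73PC, 4 were lower and 1 higher in Cd73NC, and 0 differed between E15 and E18. Upper-quartile scaling, median-ratio scaling, and quantile normalization gave 3, 2, and 3 members higher in Cd73PC at P5 (1 as reported). At P8 each gave 3 higher and 1 lower (2 and 2 as reported). Each also gave 2 lower from P2 to P8 in Cd73PC (4 as reported) and 0 higher at E18 (1 as reported). Under the first and the last, 2 members were higher in Cd73PC at each stage. From P2 to P8 in Cd73NC, the first 2 gave 4 members lower and quantile normalization gave 5 (7 as reported). Quantile normalization and a minimum of 5 FPKM each left 1 member lower at P2, and the latter left 0 higher at E18. With pseudocounts of 0 and 0.1, the ratios of Phf19 moved, and Eed passed 1.5-fold from P2 to P8 in Cd73PC, which gave 5 members lower (4 as reported). The share of calls that were higher in Cd73PC over all genes went from 31.3% to 47.5% at P5 and from 29.4% to 47.6% at P8 under quantile normalization, and the share that rose went from 30.4% to 48.5% between P2 and P8 in Cd73PC and from 68.7% to 54.7% between E15 and E18. The fit with the stage as the replicate block, chosen after seeing the data, paired the fractions of a stage and called 1 member higher and 2 lower in Cd73PC, against 1 and 1 past 1.5-fold at each stage. In that fit the 3 scalings gave 2 higher each and 1, 1, and 2 lower, and leaving out the pair of 1 stage gave 0 to 1 in either direction. A difference at a single stage, with time, or between E15 and E18 has 1 library on each side, none of which could be left out. The bounds cover 1 library each, and differences within them were not detectable at this depth.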

Other observations

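The proportions of the core subunits to each other were computed after their values were seen and are given as a description. The summed FPKM of Ezh1 and Ezh2 relative to that of Suz12 was 2.43 at E15 and 1.96 at E18, 1.61, 1.59, and 1.16 in Cd73NC at P2, P5, and P8, and 1.10, 1.04, and 0.717 in Cd73PC. P8 Cd73PC was the only library in which the methyltransferases together were below the scaffold. Eed relative to Suz12 was lowest in P8 Cd73NC, at 0.307, against 0.537 in P8 Cd73PC, so the same stage had fewer methyltransferase transcripts per Suz12 in one fraction and fewer Eed transcripts in the other.

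Rbbp4 relative to its close relative Rbbp7 was 1.27 at E15 and 1.32 at E18, 1.81, 1.87, and 2.38 in Cd73NC, and 1.42, 1.58, and 1.49 in Cd73PC. Jarid2 relative to Aebp2 was 0.393 at E15, 0.414 at E18, and 0.380 in P2 Cd73NC. At P2 it was 1.65 in Cd73PC, where it reached 4.98 at P8, and in Cd73NC it was 1.503 at P5 and 2.44 at P8. Jarid2 was thus above its partner in Cd73PC from P2 on and in Cd73NC from P5 on.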
